A study of Mus musculus with 6 samples.

Results

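The genes described here are 45 genes of the cell cycle and mitosis, taken as a fixed list of symbols, and the members measured are those for which the array's annotation names at least 1 probe set for that gene alone. Of the 45, 43 were measured, by 77 probe sets, out of 12393 genes tested in the series. Ccnb1 and E2f2 had no such probe set and were not analysed here. The list was divided by the phase in which the genes are best known to act, into 21 G1/S genes (20 measured) and 24 G2/M genes (23 measured). The RNA was from mouse cell lines of the hypothalamus, 2 in number and labelled as expressing neuropeptide Y: A_212, from adult hypothalamus, and N_46, from embryonic hypothalamus. Both lines were immortalised with the T-antigen of SV40. This viral protein inactivates p53 and the retinoblastoma proteins, and no untransformed cells were part of the comparison. Each line was grown on 3 plates to 70% confluence in DMEM with 5% fetal bovine serum, with 1 Affymetrix array per plate. As each age of origin is 1 line, age and line cannot be told apart, and p-values measure the spread between plates.

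A dividing cell passes through G1, copies its DNA in S phase, and divides in M phase after a gap, G2. E2F transcription factors, which retinoblastoma proteins hold in check, switch on G1/S genes such as cyclin E, the MCM replicative helicase and the enzymes that make deoxynucleotides. G2/M genes, switched on later by MYBL2, FOXM1 and their partners, encode cyclin-dependent kinase 1 and its activators, kinetochore proteins and the checkpoint that delays anaphase until chromosomes are attached. Neurons of the hypothalamus leave the cycle when they differentiate, and T-antigen keeps cells in it by releasing E2F.

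The deposited log2 values were centred on a median of 0 for every probe set. They therefore show differences between arrays and no level, so expression of a member in a line, as against none, could not be judged. A gene's value is the mean of its probe sets, and a difference is N_46 minus A_212 on the log2 scale, given with its SE (standard error) from limma, n = 3 arrays a line. Base 2 was inferred from the processing method, and each fold rests on it. In bulk RNA, more cells in a phase and more transcript per cell in that phase cannot be told apart.

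The cell cycle genes were not shifted as a block: some were higher in the embryonic-derived line N_46, others in the adult-derived line A_212, and none differed by 2-fold. Of the 43 members, 17 (39.5%) passed the test (limma, Benjamini-Hochberg over all genes, adjusted p under 0.05), 10 higher in N_46 and 7 higher in A_212, and among all genes tested 39.2% passed, 20.9% higher in N_46 and 18.3% higher in A_212. The members' share was thus near the background. The balance over all genes, 2586 higher in N_46 and 2267 higher in A_212, turned to 2207 and 2499 with the arrays scaled to one median, to 2397 and 2402 with one 75th percentile, and to 1954 and 2524 with chromosome medians taken out. At an unadjusted p under 0.05, 21 members passed, against 47.2% of all genes. The median difference was 0.053 over the G1/S genes, 0.027 over the G2/M genes and 0.060 over all genes. The median size of the difference, sign left aside, was 0.11 for G1/S genes, 0.22 for G2/M genes and 0.17 for all genes. A called difference of at least 2-fold was found for 0 of 43 members, against 5.83% of all genes, and the largest, that of Ccne1, ranked 1048 of 12393 by size. For 19 members (44.2%) the ranges of the lines were apart, 10 with N_46 above and 9 with A_212 above, against 51.1% of all genes, 28.9% and 22.2% by direction.

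**Figure D1:**
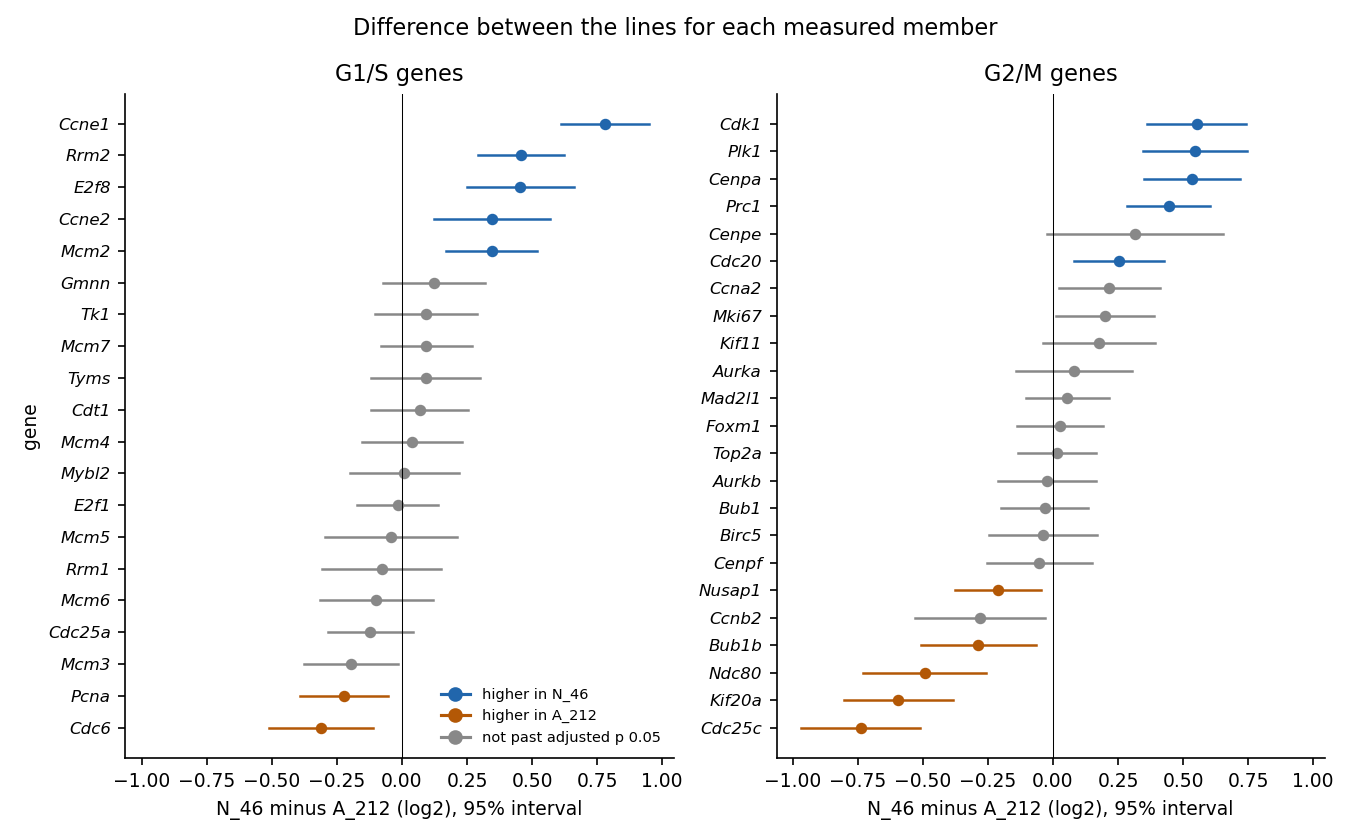
Difference between the lines for each of the 20 G1/S and 23 G2/M genes measured, as N_46 minus A_212 on the log2 scale (horizontal axis), with its 95% interval from the limma fit. Genes past an adjusted p of 0.05 lie on both sides of 0 in both panels, from Ccne1 at 0.78 to Cdc25c at -0.74.

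Of the 20 G1/S genes, 5 were higher in N_46 (Ccne1, Rrm2, E2f8, Ccne2 and Mcm2), 2 were higher in A_212 (Cdc6 and Pcna) and 13 did not pass. Both cyclin E genes, whose products activate CDK2 at the entry into S phase, were in the first group. Ccne1 (probe set 1416492_at) read -0.43, -0.31 and -0.37 on the 3 A_212 arrays and 0.46, 0.46 and 0.31 on the N_46 arrays. Every N_46 value lay above every A_212 value, and the difference was 0.78 ± 0.076 (SE, 95% interval 0.61 to 0.95), 1.72-fold, at a limma adjusted p of 1.6e-05. Its relative Ccne2 differed by 0.35 ± 0.10 (adjusted p = 0.018), and lost its call without A_212 replicate 2 (0.30), A_212 replicate 3 (0.31) or N_46 replicate 1 (0.26). E2f8, an atypical E2F that represses E2F targets late in S phase, differed by 0.45 ± 0.093 (adjusted p = 0.0028). E2f1, the classical activator of the family, read -0.023, -0.0094 and 0.0014 in A_212 and -0.10, -0.023 and 0.045 in N_46. These are means of 2 probe sets, and their ranges overlap. The difference of -0.016 (interval -0.17 to 0.14, adjusted p = 0.88) has an interval that lies wholly below that of Ccne1. The probe sets had opposite signs, 1431875_a_at at -0.13 and 1417878_at at 0.099. Neither was called, though each kept the lines apart, so no direction can be given for E2f1. Cdc25a, the phosphatase that activates CDK2, had a difference of -0.12 (interval -0.28 to 0.041).

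Of the 6 subunits of the MCM helicase, which unwinds DNA at replication forks as a single complex, Mcm2 alone passed (16.7%, against 39.2% of all genes). Mcm2 read -0.10, -0.16 and -0.24 in A_212 and 0.30, 0.12 and 0.12 in N_46. The lines did not overlap, and Mcm2 was higher in N_46 by 0.35 ± 0.079 (limma adjusted p = 0.0055), with both of its probe sets called (0.29 and 0.40). The other MCM genes did not pass, with differences from -0.20 for Mcm3 (adjusted p = 0.081) to 0.093 for Mcm7. Mcm3 passed without A_212 replicate 3 (-0.26), with array weights (-0.23) and with chromosome medians taken out (-0.25). Among the loading factors that place the helicase on origins, Cdc6 was lower in N_46 by 0.31 ± 0.090 (adjusted p = 0.019), whereas Cdt1 had a difference of 0.068 and its inhibitor Gmnn one of 0.12, neither past the test. Pcna, the sliding clamp of DNA polymerases, read 0.16, 0.081 and 0.041 in A_212 and -0.041, -0.13 and -0.22 in N_46. The lines were apart by a narrow gap, and the difference of -0.22 ± 0.076 passed at an adjusted p of 0.040. Cdc6 lost its call without A_212 replicate 1 (-0.26), A_212 replicate 2 (-0.29) or N_46 replicate 1 (-0.24), and Pcna without A_212 replicate 1 (-0.19), A_212 replicate 2 (-0.23), N_46 replicate 2 (-0.22) or N_46 replicate 3 (-0.18). Without A_212 replicate 1 or 2, 0 of the G1/S genes were called higher in A_212. The count of G1/S genes called fell to 4, all higher in N_46, without A_212 replicate 2.

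Of the 4 genes of deoxynucleotide supply, 1 passed (25%, against 39.2% of all genes). Rrm2, the regulated subunit of ribonucleotide reductase, was higher in N_46 by 0.46 ± 0.074 (limma adjusted p = 0.00064), and its 3 probe sets differed by 0.43 to 0.50. Rrm1, the partner subunit, had a difference of -0.078 (interval -0.31 to 0.15). Tyms, which makes thymidylate, and Tk1, which salvages thymidine, had differences of 0.091 and 0.093, neither past the test.

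The promoter windows of the RefSeq table (build GRCm38.p6, 250 bases before to 50 after the start, found for 37 of the 45 genes) are shown for a pair of G1/S genes because they carry different letters and because 1 of them has the largest difference of the list. The letters searched on both strands were those of the E2F site (TTTCGCGC or TTTGGCGC), the cell cycle genes homology region or CHR (TTTGAA or TTCGAA, the latter its own complement) and the CCAAT box (CCAAT). Capitals mark every match on either strand, and matches of the E2F letters can overlap.
Ccne1, chr7:38107441-38107740, minus strand: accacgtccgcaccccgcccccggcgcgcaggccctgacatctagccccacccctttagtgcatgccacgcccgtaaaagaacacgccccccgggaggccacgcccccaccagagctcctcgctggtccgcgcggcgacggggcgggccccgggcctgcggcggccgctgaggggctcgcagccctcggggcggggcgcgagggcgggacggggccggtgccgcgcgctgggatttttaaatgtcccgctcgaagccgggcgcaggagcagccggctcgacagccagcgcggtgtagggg
Mcm6, chr1:128359656-128359955, minus strand: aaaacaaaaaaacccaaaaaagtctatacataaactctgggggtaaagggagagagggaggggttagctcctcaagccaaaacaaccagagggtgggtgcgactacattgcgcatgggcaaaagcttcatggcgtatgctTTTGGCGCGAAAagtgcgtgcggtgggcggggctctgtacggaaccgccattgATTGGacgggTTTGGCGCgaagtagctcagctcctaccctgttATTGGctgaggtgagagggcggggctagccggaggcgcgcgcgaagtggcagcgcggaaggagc
The Mcm6 window holds 3 matches to the E2F letters, the first pair overlapping, and 2 to CCAAT, and Mcm6 had a difference of -0.099 (interval -0.32 to 0.12). The Ccne1 window holds none of the letters searched. Of the 18 G1/S genes with a window, 7 (38.9%) held the E2F letters, against 0.813% of all 32851 windows. Of the 6 of these that were measured (Cdc25a, Cdt1, Mcm3, Mcm5, Mcm6 and Mcm7), 0 passed the test between the lines, against 39.2% of all genes. Mcm3, Mcm5, Mcm6 and Mcm7 encode subunits of the same helicase, and Mcm3 passed in the alternatives given above. So few genes do not show whether genes with these letters differ less than others. The E2F matches were counted in 3 genes (16.7%, against 0.654% of all windows) when the 250 bases before the start were searched alone. A member was counted if any of its windows held the letters. The background share is by window instead, and the 32851 windows belong to 27025 genes. A match describes the letters and says nothing of binding.

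Of the 23 G2/M genes, 5 were higher in N_46 (Cdk1, Plk1, Cenpa, Prc1 and Cdc20), 5 were higher in A_212 (Cdc25c, Kif20a, Ndc80, Bub1b and Nusap1) and 13 did not pass. Cdk1 and Plk1, kinases that drive entry into mitosis, and Cdc25c, a phosphatase that activates CDK1, were thus on opposite sides. Cdk1, the mitotic cyclin-dependent kinase, read -0.18, -0.24 and -0.41 in A_212 and 0.18, 0.37 and 0.27 in N_46. The lines did not overlap, and the difference was 0.55 ± 0.086 (SE, n = 3 arrays per line, limma adjusted p = 0.00047), 1.47-fold. Plk1, the polo-like kinase of centrosome maturation and mitotic entry, was close in size. It read -0.14, -0.27 and -0.40 in A_212 and 0.14, 0.36 and 0.31 in N_46, without overlap, a difference of 0.55 ± 0.090 (adjusted p = 0.00070). Cdc25c, the phosphatase that removes inhibitory phosphates from CDK1 (probe set 1422252_a_at), went the other way. It read 0.44, 0.47 and 0.22 in A_212 and -0.56, -0.22 and -0.32 in N_46. The lines did not overlap, and Cdc25c was lower in N_46, by -0.74 ± 0.10 (adjusted p = 0.00022), a 1.67-fold difference. The cyclin partners of CDK1 that were measured did not pass: Ccna2 had a difference of 0.22 (adjusted p = 0.076) and Ccnb2 one of -0.28 (adjusted p = 0.072). Ccnb1, a further partner, was not measured. Ccna2 passed without N_46 replicate 1 (0.29) and with array weights (0.24). Ccnb2 passed without A_212 replicate 3 (-0.35) and with the arrays scaled to one median (-0.32). Aurka and Aurkb, the aurora kinases of spindle and centromere, had differences of 0.081 and -0.024.

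Kinetochore and centromere genes went both ways. Cenpa, the histone H3 variant that marks centromeres, read -0.16, -0.28 and -0.40 in A_212 and 0.16, 0.27 and 0.32 in N_46. N_46 was higher on every array, by 0.53 ± 0.083 (limma adjusted p = 0.00048). Ndc80, a subunit of the complex that couples kinetochores to microtubules, was lower in N_46 by 0.49 ± 0.11 (adjusted p = 0.0037). The motor and matrix proteins of the outer kinetochore, Cenpe (0.32, interval -0.022 to 0.65) and Cenpf (-0.052), did not pass, and Cenpe had the widest interval of any member. Without A_212 replicate 1 Cenpe passed (0.48). In the spindle checkpoint, Bub1b was lower in N_46 by 0.29 ± 0.099 (adjusted p = 0.041), and Bub1 (-0.032) and Mad2l1 (0.056) did not pass. Cdc20, the activator of the anaphase-promoting complex that the checkpoint restrains, was higher in N_46 by 0.25 ± 0.078 (adjusted p = 0.026), a call lost with the arrays scaled to one median (0.22) and without A_212 replicate 2 (0.26), A_212 replicate 3 (0.22), N_46 replicate 2 (0.25) or N_46 replicate 3 (0.20). Bub1b, for which the lines overlapped, lost its call without A_212 replicate 1 (-0.22), A_212 replicate 2 (-0.28), N_46 replicate 1 (-0.21) or N_46 replicate 3 (-0.29).

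Spindle and cytokinesis genes were likewise split. Prc1, which bundles microtubules of the central spindle, was higher in N_46 by 0.44 ± 0.072 (limma adjusted p = 0.00061). Kif20a, a kinesin of the same central spindle, was lower. It read 0.51, 0.49 and 0.18 in A_212 and -0.18, -0.19 and -0.23 in N_46, apart in every array, a difference of -0.59 ± 0.094 (adjusted p = 0.00053). Nusap1, a microtubule-binding spindle protein, was lower in N_46 by 0.21 ± 0.074 (adjusted p = 0.043), a call lost without A_212 replicate 1 (-0.18), A_212 replicate 2 (-0.20), N_46 replicate 1 (-0.22), N_46 replicate 2 (-0.19) or N_46 replicate 3 (-0.22). The kinesin Kif11, which pushes spindle poles apart, had a difference of 0.18 (interval -0.040 to 0.39) and passed without A_212 replicate 1 (0.27), and Birc5, or survivin, one of -0.039. The proliferation markers Mki67 and Top2a did not pass. Mki67, the gene of the Ki-67 antigen, read 0.0074, -0.23 and -0.25 in A_212 and 0.094, 0.039 and -0.0074 in N_46, with 1 A_212 array reaching into the N_46 range. Its difference was 0.20 ± 0.085 (adjusted p = 0.089), and it passed without that array, A_212 replicate 1 (0.28). Top2a, the topoisomerase that untangles replicated chromosomes, read 0.037, -0.036 and -0.030 in A_212 and -0.0015, 0.011 and 0.0078 in N_46. As means of 2 probe sets, these were among the narrowest ranges of the list. The difference of 0.016 had an interval from -0.13 to 0.16. The probe sets differed by -0.035 (1454694_a_at) and 0.066 (1427724_at), neither called. In A_212 the first read 0.12, -0.0044 and -0.087 and the other -0.049, -0.068 and 0.027, so the mean is narrower than its parts. Without A_212 replicate 1, 8 G2/M genes were called higher in N_46 and 3 higher in A_212.

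**Figure D2:**
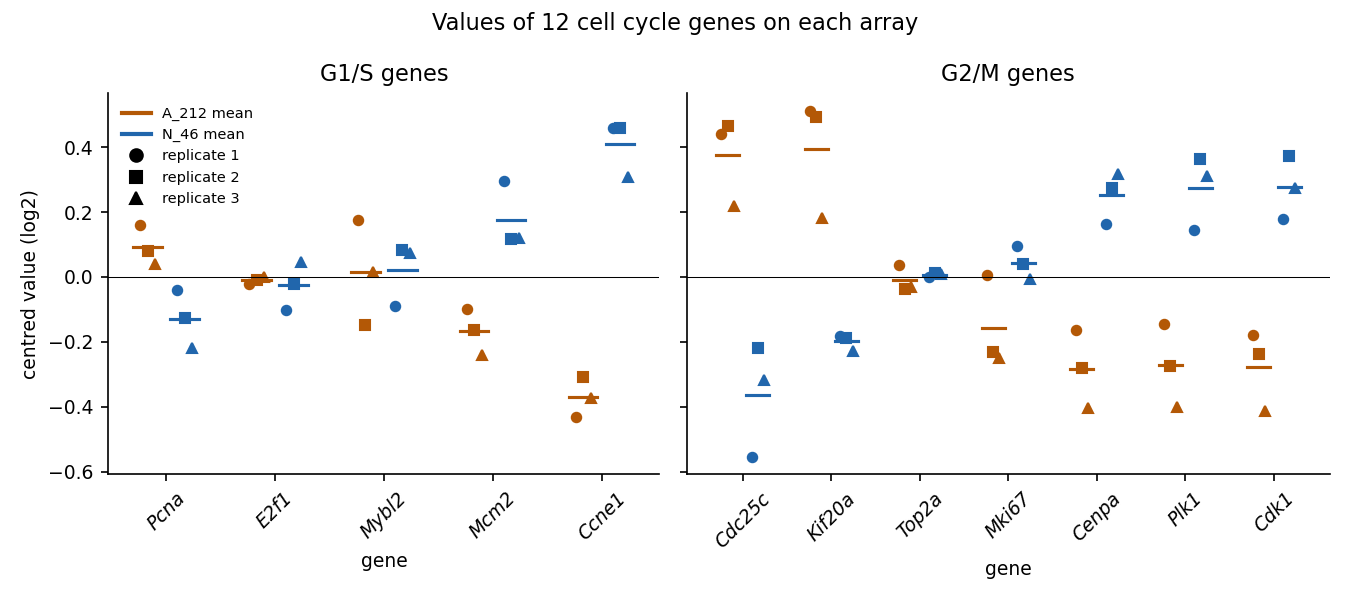
Centred log2 value (vertical axis) of 5 G1/S and 7 G2/M genes on each of the 6 arrays, with A_212 in brown, N_46 in blue, a symbol per replicate and a bar at each line's mean. The lines are apart for Ccne1, Mcm2, Cdk1, Plk1 and Cenpa in one direction and for Cdc25c, Kif20a and Pcna in the other, and overlap for E2f1, Mybl2, Top2a and Mki67.

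Windows of 3 G2/M genes are shown because all hold the CHR letters near the start site while the genes differed in opposite directions between the lines, Cdk1 and Plk1 higher in N_46 and Ndc80 higher in A_212. They are from the same RefSeq table and build, and capitals mark the E2F, CHR and CCAAT letters as above.
Cdk1, chr10:69352863-69353162, minus strand: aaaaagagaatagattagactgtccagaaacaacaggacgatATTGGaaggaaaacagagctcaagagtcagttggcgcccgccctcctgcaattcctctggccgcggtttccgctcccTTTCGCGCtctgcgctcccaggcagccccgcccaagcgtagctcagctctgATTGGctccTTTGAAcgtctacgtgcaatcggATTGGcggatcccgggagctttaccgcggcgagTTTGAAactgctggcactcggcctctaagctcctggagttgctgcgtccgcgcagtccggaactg
Plk1, chr7:122159185-122159484, plus strand: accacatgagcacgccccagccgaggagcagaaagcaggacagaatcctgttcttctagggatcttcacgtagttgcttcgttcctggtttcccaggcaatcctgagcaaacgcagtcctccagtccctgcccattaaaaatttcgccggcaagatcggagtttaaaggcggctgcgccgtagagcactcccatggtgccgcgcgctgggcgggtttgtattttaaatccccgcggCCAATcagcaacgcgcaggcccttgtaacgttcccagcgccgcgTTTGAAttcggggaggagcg
Ndc80, chr17:71526808-71527107, minus strand: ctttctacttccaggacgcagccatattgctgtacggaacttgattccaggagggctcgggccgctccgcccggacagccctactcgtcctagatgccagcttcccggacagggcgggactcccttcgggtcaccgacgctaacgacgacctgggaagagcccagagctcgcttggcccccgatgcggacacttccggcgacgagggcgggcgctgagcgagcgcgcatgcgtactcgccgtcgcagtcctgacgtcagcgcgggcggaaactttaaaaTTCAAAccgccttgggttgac
The Cdk1 window holds 1 match to the E2F letters, 2 to CHR and 3 to CCAAT. The Plk1 window holds 1 CHR and 1 CCAAT match, and the Ndc80 window 1 CHR match on the opposite strand. Of the 19 G2/M genes with a window, 14 (73.7%) held the CHR letters, against 19.2% of all windows, and 15 (78.9%) held CCAAT, against 37.4%. Of the 18 G1/S genes with a window, 11 (61.1%) held CCAAT and 4 (22.2%) the CHR letters. Without the 50 bases after the start, CHR was found in 8 G2/M genes (42.1%, against 17.1% of all windows). Here too members were counted by gene and the background by window. Of the 14 genes with the CHR letters, 5 were higher in N_46, 2 were higher in A_212 and 7 did not pass. Among all genes tested, 39.2% were called, 20.9% higher in N_46 and 18.3% higher in A_212. Of all 23 G2/M genes measured, 43.5% were called, 5 each way, so the 14 genes show no lean of CHR genes to a line. Both transcription factors of the late programme did not pass as gene means, Mybl2 at 0.0082 (interval -0.20 to 0.22) and Foxm1 at 0.027 (interval -0.14 to 0.19), and both had probe sets that disagreed.

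Among the 22 members read by more than 1 probe set, Mybl2 alone had probe sets called in opposite directions. As a mean of both, Mybl2 read 0.17, -0.15 and 0.016 in A_212 and -0.091, 0.083 and 0.074 in N_46, with overlap. Its probe set 1454946_at was lower in N_46 by 0.43 ± 0.10 (limma adjusted p = 0.0076 over probe sets), and 1417656_at was higher by 0.45 ± 0.096 (adjusted p = 0.0039), so the mean hides a disagreement and no direction can be given for Mybl2. The 4 Foxm1 probe sets ranged from -0.28, which was called, to 0.24, which was not. The 2 of Nusap1 stood at -0.48 and 0.055, and the gene's call came from the first. Which transcripts these probe sets match was not tested. Of the 77 probe sets, 23 were called, 16 higher in N_46 and 7 higher in A_212, against 37.4% of all 20380 probe sets. Pcna and Bub1b, each read by 1 probe set, were called as genes but not in the fit over probe sets (limma adjusted p = 0.055 and 0.0501). These calls thus depended on which features entered the fit. With plain probe sets alone, those not marked as able to match several transcripts, 4 of the 17 G2/M genes left were called, since Cdc25c, Kif20a, Cenpa and Prc1 have no plain probe set and Cdc20 and Nusap1 lost their calls.

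Within A_212 the members moved together from plate to plate. A_212 replicate 1 had the highest value of its line for 21 of 23 G2/M genes (91.3%) and 15 of 20 G1/S genes (75%), where it was highest for 28.1% of all genes. A_212 replicate 3 had the lowest value for 20 of the G2/M genes (87%) and 13 of the G1/S genes (65%), where it was lowest for 38.5% of all genes. Relative to the line's mean, the median G2/M gene lay at 0.10 on the first and -0.11 on the other of these arrays, and the median G1/S gene at 0.11 and -0.094. The further genes of the pathway followed the same plates: A_212 replicate 1 was highest for 33 of 41 other mitosis genes and 23 of 38 other replication genes. In N_46, replicate 1 was the highest of its line for 11 of 20 G1/S genes (55%), against 29.9% of all genes, and the lowest for 14 of 23 G2/M genes (60.9%), against 47.5% of all genes. It was the lowest for 39% of the other mitosis genes. N_46 replicate 2 was the highest of its line for 14 of 23 G2/M genes (60.9%) and 24 of 41 other mitosis genes (58.5%), against 35.1% of all genes. For G1/S genes it was the highest for 7 of 20 (35%). Members' plate-to-plate SD had a median of 0.12 in A_212 and 0.089 in N_46, against 0.099 and 0.078 for all genes. Genes of one pathway share each plate's RNA and are not independent, so these counts are a description.

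**Figure D3:**
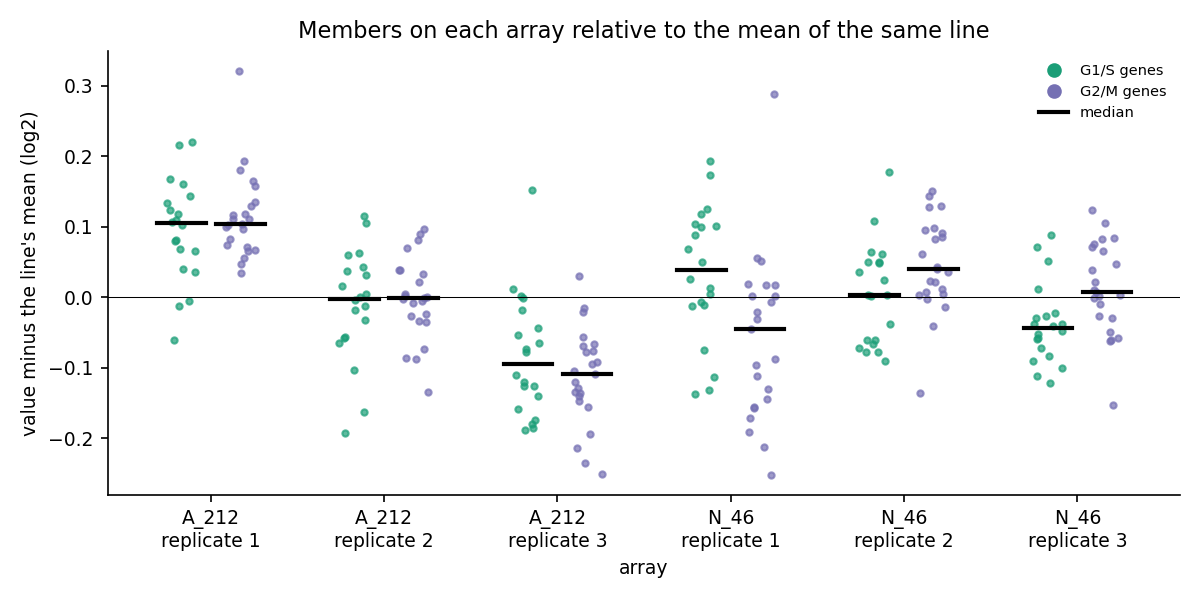
Value of each member minus the mean of its own line (log2, vertical axis) on each of the 6 arrays, with G1/S genes in green, G2/M genes in purple and a black bar at each median. Both sets lie mostly above 0 on A_212 replicate 1 and mostly below on A_212 replicate 3, and on N_46 replicate 1 the median of G1/S genes is 0.039 and that of G2/M genes -0.044.

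Direction went with chromosome for some members and not for others. Of the 6 members on chromosome 7, 4 were higher in N_46 (Ccne1, E2f8, Prc1 and Plk1) and 0 in A_212. Of the 7 on chromosome 2, 0 were higher in N_46 and 3 in A_212 (Pcna, Bub1b and Nusap1), and both members on chromosome 18, Cdc25c and Kif20a, were higher in A_212. Over all genes tested, chromosome 7 had a median difference of 0.13 with 31.5% of genes higher in N_46 and 10.2% in A_212, chromosome 2 had a median of 0.013 with 13.2% and 25.2%, and chromosome 18 a median of -0.13 with 9% and 43.7%. Cdk1 lies on chromosome 10, which had the highest median, 0.19, and 42.1% of genes higher in N_46. Chromosome 9 had a median of -0.069, with 7.46% of genes higher in N_46 and 34.9% in A_212, yet 0 of its 2 members were called. Both members on chromosome 4, Ccne2 and Cdc20, were higher in N_46, though its median of 0.052 was near that of all genes, 0.060. Cdc25c and Kif20a are separated by 2 protein-coding genes and share neighbours. In windows of 10 protein-coding genes on each side, chosen after the values were seen, 11 of 17 measured neighbours of Cdc25c were higher in A_212 and 0 in N_46 (median -0.34). Of 12 measured neighbours of Cdk1, 9 were higher in N_46 and 2 in A_212 (median 0.63, above Cdk1's own 0.55). Kif20a, itself a member, was not counted among the neighbours of Cdc25c. The 6 measured neighbours of Ccne1 had a median of 0.040, far under its 0.78, with 2 higher in N_46 and 1 in A_212. The 13 of Ndc80 had a median of 0.13, against its -0.49, with 3 higher in N_46 and 1 in A_212. The neighbours' median was positive for 10 of 10 members higher in N_46 and for 21 of 26 members not called. It was negative for 5 of 7 members higher in A_212, of which Cdc25c and Kif20a share neighbours. Among all genes tested, 7563 of 12393 had a positive difference. Some of the neighbours' medians were near 0. That of Ccne2 was 0.0033, with 1 neighbour higher in N_46 and 5 in A_212, and that of Bub1b was -0.0094. With each chromosome's median taken out, 17 members were called: Mcm3 gained a call (-0.25) and Cdc20 lost its own (0.20). The part of the chromosomal neighbourhood in the members' differences was not tested further.

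**Figure D4:**
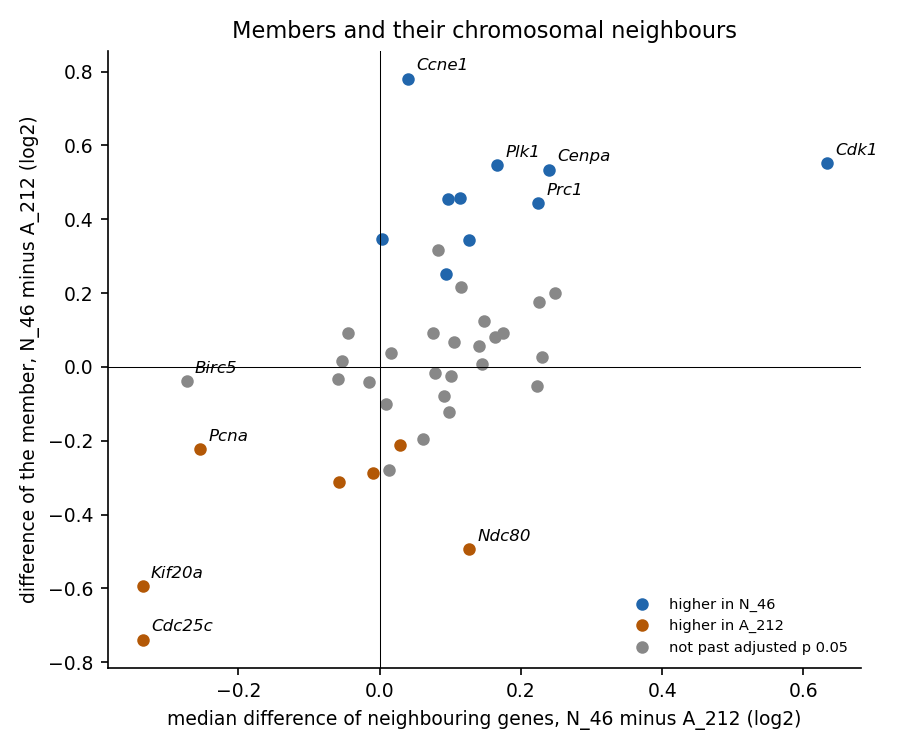
Difference of each measured member (vertical axis) against the median difference of the other measured genes within 10 protein-coding genes on each side (horizontal axis), both as N_46 minus A_212 on the log2 scale, coloured by call. Cdc25c and Kif20a lie low with their neighbours at -0.34, Cdk1 lies high with its neighbours at 0.63, and Ccne1 and Ndc80 lie far from neighbours near 0. Kif20a is not counted among the neighbours of Cdc25c.

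Further genes of the same processes were called at 31.6% for replication and 39% for mitosis, at or below the 39.2% of all genes, and in both directions. Of 38 other replication genes measured, 8 were higher in N_46, 4 were higher in A_212 and 26 did not pass, with a median of 0.027. With chromosome medians taken out, 3 were higher in N_46 and 5 higher in A_212. Ung, the uracil-DNA glycosylase, differed by 0.98 ± 0.076 (limma adjusted p = 3.0e-06), more than any member, followed by the origin recognition subunit Orc2 (0.53) and the cyclin E partner Cdk2 (0.40). Prim2, a primase subunit (-0.41), the clamp loader subunit Rfc3 (-0.39) and the ligase Lig1 (-0.29) were higher in A_212. Of 41 other mitosis genes measured, 9 were higher in N_46, 7 were higher in A_212 and 25 did not pass, with a median of 0.045. With chromosome medians taken out, 7 were higher in N_46 and 8 higher in A_212. The mitotic kinase Pbk (0.67), the kinesin Kif22 (0.44) and the cytokinesis factor Ect2 (0.44) were higher in N_46. Cdc25b, which like Cdc25c activates CDK1 (-0.90, adjusted p = 3.8e-05), the hyaluronan receptor and spindle protein Hmmr (-0.65) and the condensin subunit Ncapd2 (-0.62) were higher in A_212.

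The marker lists of cell types differed unevenly. The median size of the difference was 2.26 for fibroblast and mesenchymal markers, above the members' 0.20, and 0.088 for neuronal, 0.030 for astrocyte and 0.12 for microglia markers, all below it. Among 8 markers of fibroblasts and mesenchyme, 6 were higher in A_212, 1 in N_46 and 1 did not pass, from -5.14 for Postn to 0.55 for Col1a1. Of 8 neuronal markers, 2 were higher in A_212 (Stmn2 at -3.09 and Tubb3 at -1.13), Map2 was higher in N_46 (0.25) and 5 did not pass, Npy among them (0.051). Of 5 astrocyte markers, Slc1a3 passed (2.47) and 4 did not. The 4 microglia markers had differences from 0.027 to 0.24, and 0 passed in limma, with 1 at an unadjusted p under 0.05. Centring leaves no level for these markers, so the labelled cell type could not be checked by them, and their part in the members' differences was not tested.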

How the data were processed

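RNA of 6 plates, 3 per line, was measured on an Affymetrix mouse array of 22690 probe sets. The submitters' processing notes name RMA, a method of background correction, quantile normalisation and summary over probes. The deposited log2 values have a median of 0 over the 6 arrays for 22690 probe sets (within 1e-05), so the authors' file was centred at a step not given in the sources used here. Base 2 is inferred. Quantile normalisation removes any difference in total RNA, and the number of arrays limits the precision.

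Gene names came from the platform's annotation, in which 20380 probe sets had 1 gene, 691 several, 1555 none and 64 were controls. Of the first, 20351 matched the RefSeq gene table of GRCm38.p6 by gene identifier, and 0 symbols changed. Files name no genome build, so gene positions served only for chromosome and order. Those with several genes were not used (2 named a member), and those of a gene were averaged (4956 genes had more than 1).

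Members and gene lists were chosen with earlier results of these data known. Samples were grouped by the line in the titles. Lines were compared with limma (lmFit, eBayes, two-sided, Benjamini-Hochberg over 12393 genes). The replicate number was used as a block in an alternative, and the other alternatives were 2 scalings, array weights, each array left out, plain probe sets, the most variable probe set per gene, robust eBayes and chromosome medians taken out. Values per array were printed for members called with a log2 difference of at least 0.5 (at most 14), for 8 well-known genes chosen by name (7 measured) and for members whose probe sets were called in opposite directions; other members have a difference or a count. Up to 3 genes each way were named from each further list. The fit was tested on simulated data. The fit ran in limma 3.58.1 under R 4.3.3, tables were made with pandas 2.3.3 and numpy 2.4.6, and figures with matplotlib 3.10.9 (Python 3.11.15).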

Additional observations from a re-analysis of the deposited data

How the results depend on the processing

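Of 17 members called, 11 kept their call and direction in all 14 alternatives in which they were measured (Ccne1, Rrm2, E2f8, Mcm2, Cdk1, Plk1, Cenpa, Prc1, Cdc25c, Kif20a and Ndc80), and the other 6 (Ccne2, Cdc6, Pcna, Cdc20, Bub1b and Nusap1) each lost it in at least 1. Of the members not called, 7 gained a call in some alternative. Mybl2 turned to -0.43 with the most variable probe set. Leaving out 1 array gave 4 to 7 G1/S genes called, 7 to 11 G2/M genes, 8 to 12 other replication genes and 15 to 18 other mitosis genes, with medians of 0.0022 to 0.097 over G1/S and 0.0025 to 0.078 over G2/M genes. With plain probe sets alone, 4 G2/M genes and 13 of 51 member probe sets were called. Of the 6 G2/M calls lost, 4 genes were no longer measured and 2, Cdc20 (0.23) and Nusap1 (-0.21), were tested and missed the threshold. Taking out chromosome medians moved the median of G1/S genes to -0.019 and gave 3 other replication genes higher in N_46 and 5 higher in A_212. Setting each array to the same median gave 4 G2/M genes higher in N_46 and 6 higher in A_212. In the 250 bases before the start, the E2F letters were in 3 G1/S genes and the CHR letters in 8 G2/M genes. The lines share replicate numbers, but deviations of same-numbered arrays correlated at -0.027, -0.012 and 0.093 across genes and those of other pairs at -0.097 to 0.12, so the numbers were not taken as pairs. With the replicate block, 7 G1/S genes, 10 G2/M genes and 4834 of all genes were called. Cenpe gained and Nusap1 lost a call under it. Because the values are centred, signal over background could not limit which members were tested.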
